A study of Mus musculus with 20 samples.

Results

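Cytokines are secreted proteins through which cells of the immune system and of solid tissues signal to each other, and chemokines are the cytokines that direct the movement of leukocytes. Most act through receptors on the cell surface, and the families also hold decoy receptors and soluble antagonists that bind without passing a signal on. In adipose tissue these proteins are studied as part of the inflammation that accompanies obesity, in which macrophages gather in fat and several chemokines rise.

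The genes described here are those for chemokines, interleukins, Tnf superfamily ligands, interferon gamma and their receptors on a mouse short-oligonucleotide array. A probe set was taken where its single annotated symbol starts with Ccl, Cxcl, Ccr, Cxcr, Tnfsf or Tnfrsf, or with Il followed by a digit, or is Tnf or Ifng. Ccl5, Cxcl13, Cxcr5 and Ccr7 were left out, and for genes with more than 1 probe set the one of highest mean was kept. This gave 95 genes of the 8251 with a symbol of their own: 13 CC chemokines, 7 CXC chemokines, 11 chemokine receptors, 21 interleukins, 24 interleukin receptors and binding proteins, 6 Tnf superfamily ligands, 11 Tnf superfamily receptors, Ifng, and Ccrl2, which the prefix catches and which is a chemokine receptor-like protein.

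The study concerns sleep apnea and glucose metabolism in mice, and its arrays hold 1 RNA sample each. Subcutaneous adipose tissue was measured on 8 arrays: 2 titled Glucose with hypoxia, 2 titled Glucose without hypoxia, 2 titled Con with hypoxia and 2 titled Con without hypoxia. These came from mice 12 weeks old of the strains C57BL-6J and C57BL-6J-Lep (spelled C57BL-6J-LepOb on 2 arrays), of which the second carries the obesity gene Lep in its name. In the hypoxia groups oxygen fell from 20.9% in air to 5% over 30 seconds and returned to 20% over 30 seconds, on each of 5 days for 16 hours. The labels of the non-hypoxia groups name intermittent hypoxia or intermittent room air without saying which applied, so these groups are called here as their titles call them. The labels leave unsaid the strain behind each array, the meaning of Con and Glucose, and whether arrays of a group came from separate animals, so a p-value here measures only the spread between arrays. Brain, heart, lung and skeletal muscle of C57BL-6J mice 20 weeks old were measured on 12 arrays, 1 for each tissue under hypoxia, sleep fragmentation and control, and the dose and length of these exposures are not given in the sources used here.

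Values are deposited intensities and were analysed on the log2 scale. On the adipose arrays a value under 97.7 was set to that value, which makes 6.61 the lowest log2 level, called the floor. The number of arrays limits the precision. On the 2 Con arrays numbered 1 the brown adipocyte marker list summed to 79270 with hypoxia and 52551 without, and on the other two Con arrays to 3633 with hypoxia and 10012 without. The 4 Glucose arrays had 1187 to 2740, below all Con arrays, and skeletal muscle markers were present on all 8 adipose arrays with sums of 12440 to 119585. In the panel the brain hypoxia array had a trimmed mean of 2670 before normalization, against about 800 on each of the others. All 5 brain, all 5 heart and 4 of 5 skeletal muscle markers were higher in their own tissue, but of 4 lung markers 2 were higher in lung and Sftpc, the gene of surfactant protein C, was lower there (-1.22 ± 0.43, adjusted p = 0.0308). The lung marker list summed to 1494 to 14211 on brain arrays, against 12040 to 25525 on lung arrays. Skeletal muscle markers summed to 1090 to 10454 on brain and 788 to 14499 on lung arrays, against 39784 to 42570 on muscle arrays. The part of these signals in the tissue and exposure differences was not tested. For Actb the 3' over 5' signal of its control probe sets was 0.0288 to 0.0635 on the 3 lung arrays and 0.0343 on the brain hypoxia array, against 0.662 to 1.70 on the remaining arrays. For Gapdh that ratio was 0.00899, 0.264 and 0.0261 on the hypoxia, fragmentation and control muscle arrays and 0.136 on the heart hypoxia array, against 0.821 to 0.915 on the lung arrays.

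Many of the genes gave little signal in adipose tissue. Over the 95 genes and 8 arrays 52.1% of values lay at the floor, against 34.4% over all probe sets. There were 28 genes above the floor on all 8 arrays, 27 at the floor on all 8 and 40 in between. The ligands that are best known from inflamed fat were among those at the floor: Tnf, Il6 and Il1b, as well as Ifng, lay at the floor on every adipose array, which gives no level for them and does not show that they are not expressed. Of 21 interleukins 1 was above the floor on all arrays, against 11 of 24 interleukin receptors and binding proteins, 6 of 13 CC chemokines and 5 of 11 Tnf superfamily receptors.

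The 5 genes with the highest mean log2 level in adipose tissue were Il10rb, the chain shared by receptors of the interleukin 10 family (12.20), Il6st, the gp130 chain that signals for interleukin 6 and its relatives (11.78), Il27ra, a receptor chain for interleukin 27 (11.77), Ccl6, a mouse CC chemokine of myeloid cells (11.77), and Ccl9, another (11.37). These levels come from different probe sets, so their order among themselves carries no meaning. Of the 95 genes, 38 passed the filter on low values in adipose tissue, which kept 7453 probe sets above the 40th percentile of the mean. In the tissue panel 26 passed a filter that took the highest tissue mean instead of the mean over all arrays. Both filters were passed by 20 genes and neither by 51.

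Glucose arrays were first set against Con arrays, as titled, over both exposures. Among the 38 genes 3 were lower and 2 higher on the Glucose arrays. Il1r2, a decoy receptor that binds interleukin 1 without signalling, Ccl8, a chemokine that attracts monocytes, and Il16, an attractant of T cells, were lower. Ccl3, a chemokine of activated macrophages, and Il1rn, the secreted antagonist of the interleukin 1 receptor, were higher. The count of 5 of 38 is 13.2%, beside 7.58% of all 7453 probe sets tested, with 4.04% higher and 3.54% lower (limma, Benjamini-Hochberg adjusted p of 0.05). The median difference was -0.10 over the 38 genes and 0.04 over all probe sets.

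Il1r2 had the largest difference of the 38 genes. Its intensity was 258 and 197 on Glucose hypoxia and 172 and 137 on Glucose non-hypoxia arrays, against 757 and 852 on Con hypoxia and 989 and 1587 on Con non-hypoxia arrays. All 4 Glucose arrays lay below all 4 Con arrays. The difference was -2.43 ± 0.26 (standard error of the fit), or 5.39-fold lower on Glucose, with an adjusted p of 0.00208. A second probe set of the gene gave -2.35 (adjusted p = 0.00643). The gene passed in 16 of the 18 other settings tried, the exceptions being the 2 that kept only 1 array of each group. Il1r1, the receptor through which interleukin 1 does signal, differed by 0.17 ± 0.37 and did not pass.

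Ccl8 had intensities of 307 and 385 on Glucose hypoxia and 148 and 658 on Glucose non-hypoxia arrays, against 955 and 1671 on Con hypoxia and 1520 and 2465 on Con non-hypoxia arrays. The sides did not overlap, but the 2 Glucose non-hypoxia arrays differed from each other on the log2 scale more than the arrays of any other group did. The difference was -2.26 ± 0.49, or 4.77-fold lower on Glucose (adjusted p = 0.0354).

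Il16 had 233 and 233 on Glucose hypoxia and 299 and 186 on Glucose non-hypoxia arrays, against 469 and 875 on Con hypoxia and 561 and 623 on Con non-hypoxia arrays. Again every Glucose array was below every Con array. The difference was -1.39 ± 0.29, or 2.62-fold lower on Glucose (adjusted p = 0.0321).

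Ccl3 had 346 and 317 on Glucose hypoxia and 207 and 221 on Glucose non-hypoxia arrays, against 135 and 86.2 on Con hypoxia and 71.2 and 121 on Con non-hypoxia arrays. The sides did not overlap, and 2 of the Con arrays lay at the floor, so that the difference of 1.25 ± 0.23 (2.38-fold higher on Glucose, adjusted p = 0.0203) is a lower bound in size.

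Il1rn had 207 and 141 on Glucose hypoxia and 343 and 437 on Glucose non-hypoxia arrays. On the Con arrays 3 of 4 values were under the floor, and the fourth, a Con non-hypoxia array, had 160, above 1 of the Glucose arrays. The difference was 1.22 ± 0.27 (2.33-fold higher on Glucose, adjusted p = 0.0388), again a lower bound in size. With the floor set at the 30th instead of the 20th percentile neither gene passed, Ccl3 having 0.59 (adjusted p = 0.132) and Il1rn 0.62 (adjusted p = 0.13).

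**Figure D1:**
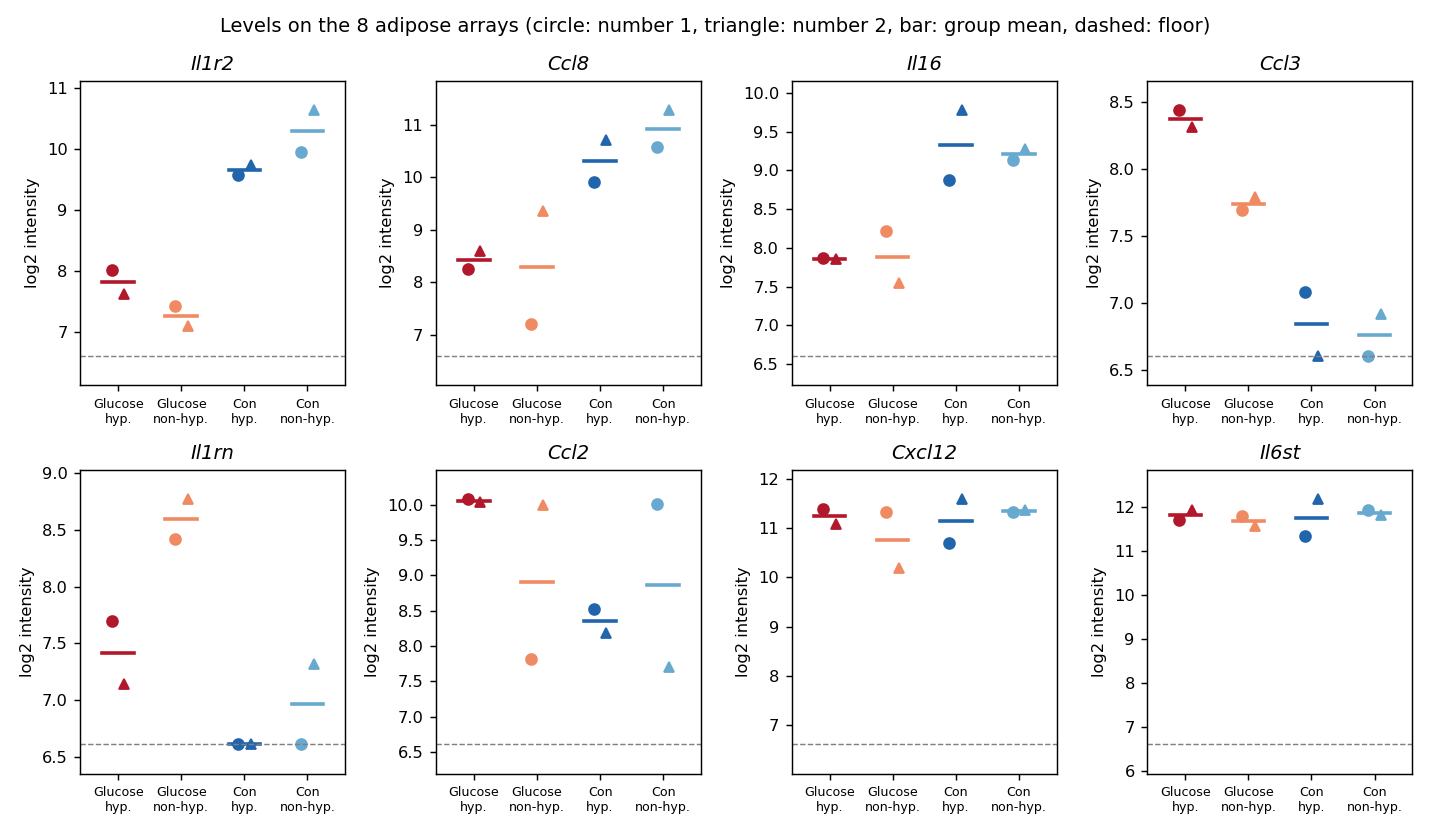
Log2 intensity of 8 genes on the 8 adipose arrays, by group, with the 2 Glucose groups left of the 2 Con groups; circles are arrays numbered 1, triangles arrays numbered 2, bars group means and the dashed line the floor at 6.61. Il1r2, Ccl8 and Il16 lie lower and Ccl3 higher on all 4 Glucose arrays, Il1rn overlaps on 1 array, and Ccl2, Cxcl12 and Il6st show no such split.

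Of the 5 calls, the one for Il1r2 was the only one to hold whichever single array was left out (adjusted p at most 0.0137), and the number of genes called was then 1 to 3. Ccl8 passed in 8 of 18 other settings, Il16 in 6 of 18, Ccl3 in 8 of 15 and Il1rn in 3 of 15, and each kept its sign in all of them. Without both Con arrays numbered 1, on which the brown fat markers were high, Il1r2 alone passed (-2.64, adjusted p = 0.0459).

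The promoters of Il1r2, Ccl8 and Ccl3 are shown because these are the called genes for which RefSeq lists a single start. Each run is the 250 bases before the start in the GRCm38.p6 build, 5′ to 3′ on the strand of the gene, and capitals mark matches to a set of motifs. Il1r2 is on chromosome 1 (chr1:40085843-40086092, plus strand), Ccl8 on chromosome 11 (chr11:82114935-82115184, plus strand) and Ccl3 on chromosome 11 (chr11:83649379-83649628, minus strand).
Il1r2: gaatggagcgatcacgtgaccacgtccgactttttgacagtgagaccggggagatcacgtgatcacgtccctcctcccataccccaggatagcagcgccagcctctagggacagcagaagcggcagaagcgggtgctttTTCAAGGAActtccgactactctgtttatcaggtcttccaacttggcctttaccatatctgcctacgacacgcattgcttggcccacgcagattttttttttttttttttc
Ccl8: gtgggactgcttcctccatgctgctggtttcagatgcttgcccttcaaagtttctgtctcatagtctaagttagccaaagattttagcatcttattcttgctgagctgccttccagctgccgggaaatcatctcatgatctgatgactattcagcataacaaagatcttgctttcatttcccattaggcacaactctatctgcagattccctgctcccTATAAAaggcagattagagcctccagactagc
Ccl3: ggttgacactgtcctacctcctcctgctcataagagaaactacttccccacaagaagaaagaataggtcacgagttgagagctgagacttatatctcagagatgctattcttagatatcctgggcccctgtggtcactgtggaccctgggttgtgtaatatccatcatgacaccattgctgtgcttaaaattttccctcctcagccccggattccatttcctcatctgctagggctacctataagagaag
The motifs searched, on both strands, were TTCNNNGAA (as bound by STAT factors), TTGCNNCAA (as bound by C/EBP factors) and TATAAA (the TATA box). The window of Il1r2 holds 1 match to TTCNNNGAA, at -111 to -103 from the start, a motif found in 7.02% of 32851 such windows. The window of Ccl8 holds TATAAA at -32 to -27, which 12.4% of windows hold, and that of Ccl3 holds none of the 3 motifs. The share of windows with TTGCNNCAA was 1.74%. Il16 and Il1rn have 3 listed starts each and are not shown. These matches describe the letters in these windows and no factor binding was measured.

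By role, the CC chemokines moved both ways. Of 8 tested, Ccl8 was lower and Ccl3 higher, and the other 6 did not pass: Ccl2, which recruits monocytes into fat, had 0.88 ± 0.62 (adjusted p = 0.442), and Ccl6 -1.11 ± 0.30 (adjusted p = 0.0746). Ccl2 had 1081 and 1047 on Glucose hypoxia and 226 and 1025 on Glucose non-hypoxia arrays, against 368 and 292 on Con hypoxia and 1032 and 209 on Con non-hypoxia arrays. One Glucose array and 1 Con array thus lay at the level of the opposite side. None of 4 CXC chemokines passed, and Cxcl12, a chemokine of stromal cells that retains leukocytes, had -0.25 ± 0.34 (adjusted p = 0.715). Of its 2 other probe sets, one gave -1.18 (adjusted p = 0.0379) and the other -0.01 (adjusted p = 0.994), so the 3 probe sets of this gene disagree.

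The 3 chemokine receptors tested all had negative differences and none passed. Ccr2, the receptor for Ccl2 on monocytes, came closest, with 413 and 327 on Glucose hypoxia and 245 and 324 on Glucose non-hypoxia arrays, against 623 and 798 on Con hypoxia and 519 and 947 on Con non-hypoxia arrays (-1.13 ± 0.29, adjusted p = 0.0586). Ccr6, the receptor for Ccl20 on lymphocytes, had -1.90 ± 0.65 (adjusted p = 0.133) with 2 Glucose arrays at the floor. Both genes had no overlap between the sides, as did Tnfrsf1a.

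Of 11 interleukin receptors and binding proteins tested Il1r2 was lower and none higher. Il7r, the interleukin 7 receptor of lymphocytes, had -1.11 ± 0.38 (adjusted p = 0.132), and Il6st -0.06 ± 0.27 (adjusted p = 0.92). Of 8 Tnf superfamily receptors none passed. Tnfrsf1a, the main receptor for Tnf, had 4083 and 4228 on Glucose hypoxia and 3273 and 2213 on Glucose non-hypoxia arrays, against 1805 and 1659 on Con hypoxia and 1878 and 1933 on Con non-hypoxia arrays (0.88 ± 0.23, adjusted p = 0.0673). Tnfrsf11b, osteoprotegerin, a soluble decoy for a Tnf family ligand, had 0.98 ± 0.38 (adjusted p = 0.173).

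Counting overlap alone, 7 of the 38 genes (18.4%) had no overlap between Glucose and Con arrays, beside 19.8% of all probe sets (11.4% with Glucose higher and 8.33% with Glucose lower). Among the 57 genes not tested, Il18r1, a chain of the interleukin 18 receptor, was above the floor on 0 of 4 Glucose and 4 of 4 Con arrays. Tnfrsf18, a receptor of T cells, was above it on 1 of 4 Glucose and 4 of 4 Con arrays. Tnfrsf21 went the other way, above the floor on 3 of 4 Glucose and 1 of 4 Con arrays. Such cases were not counted over all untested probe sets.

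**Figure D2:**
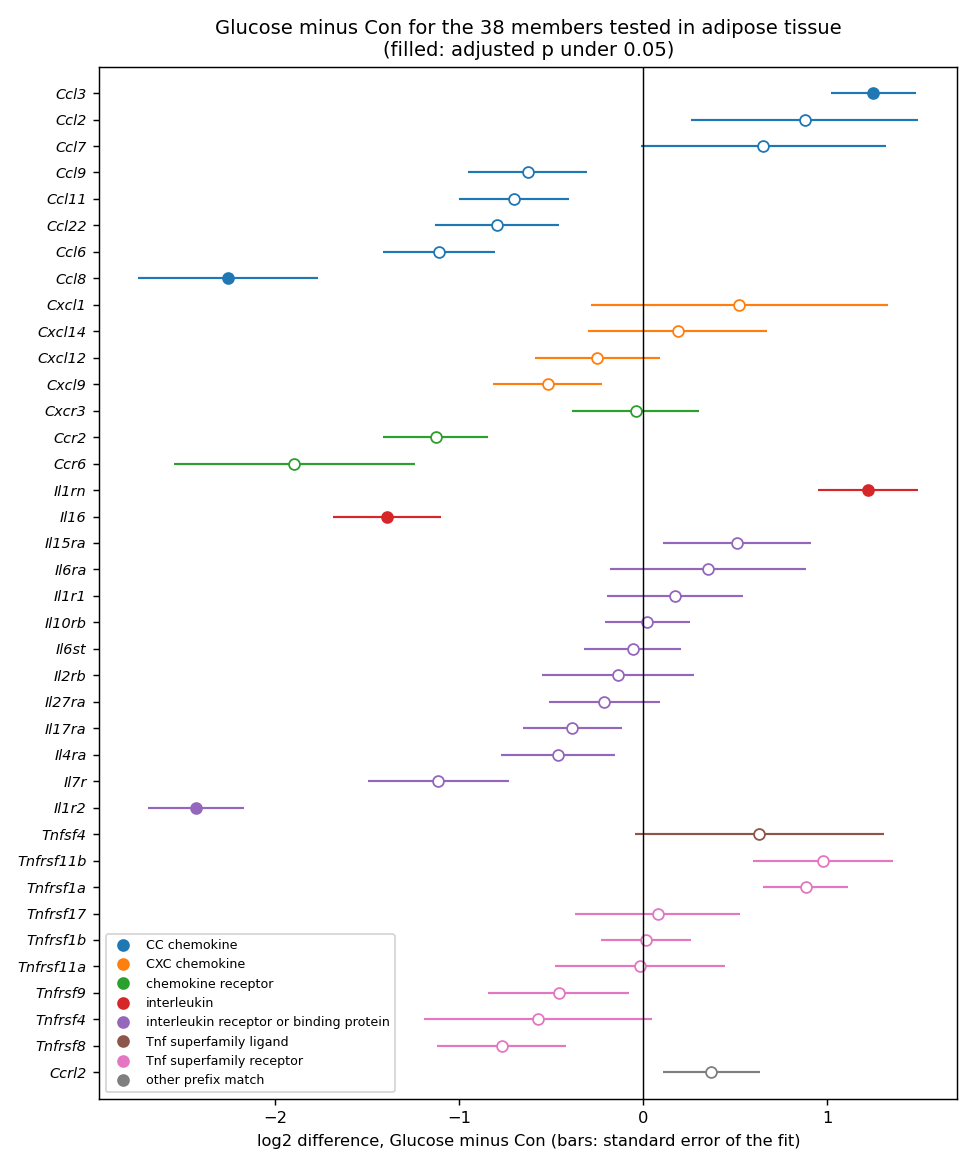
Log2 difference, Glucose minus Con, of the 38 genes tested in adipose tissue, ordered by role, with the standard error of the fit as bars; filled points passed at an adjusted p of 0.05. The 5 filled points are Ccl3 and Il1rn to the right of 0 and Il1r2, Ccl8 and Il16 to the left.

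Other genes of the same pathways were read from lists. Of 33 intracellular signalling genes on the array, such as the Jak kinases, Stat factors, Socs inhibitors and NF-kB subunits, 26 were tested and 0 passed by limma, with a median of -0.20. The nearest were Socs2 (-1.10 ± 0.31, adjusted p = 0.084) and Relb, a subunit of the noncanonical NF-kB pathway (-1.16 ± 0.36, adjusted p = 0.108). Of 27 related ligands and receptors outside the symbol rule 20 were tested and 1 passed: Ltb, lymphotoxin beta, a ligand of lymphocytes, was at least 19.8-fold lower on Glucose, with all 4 Glucose arrays at the floor (adjusted p = 0.000808).

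Markers of lymphocytes moved with the same comparison. All 5 B cell markers tested were lower on Glucose, with a summed level over 7 genes of 1414 to 2318 on Glucose and 7517 to 11924 on Con arrays, and 2 of the 7 were at the floor on every Glucose array. Of 4 T cell markers tested 3 were lower, with sums over 8 genes of 870 to 1147 on Glucose and 3409 to 4924 on Con arrays, and 5 of the 8 were at the floor on every Glucose array. Of 3 lymph node stroma markers tested 2 were lower. Of 4 mast cell markers tested 1 was lower, with sums over 6 genes of 1188 to 1710 on Glucose and 3190 to 5245 on Con arrays, and of 4 brown adipocyte markers tested 1 was lower. None of 8 macrophage markers passed, with sums of 11988 to 20308 on Glucose and 13330 to 23682 on Con arrays, and none of 3 neutrophil or 6 adipocyte markers did. The part of these cells in the differences of Il16, Ccl8, Il1r2 and the others was not tested, and in a bulk sample fewer cells of a type and less RNA per cell cannot be told apart.

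The effect of intermittent hypoxia in adipose tissue was compared as hypoxia minus non-hypoxia over Con and Glucose together, within each, and as the difference between the effects; these 4 contrasts share arrays. None of the 38 genes passed in any of these 4 contrasts, beside 0% of all 7453 probe sets. At an unadjusted p of 0.05 there were 1, 2, 1 and 0 of the 38 in the mean, within Glucose, within Con and in the difference of effects, and 110, 159, 218 and 246 of all probe sets. The values below therefore describe the arrays and support no change, and a gene that did not pass may still differ.

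Over both sides together, Il1rn had the smallest p of the genes that were lower (-0.77 ± 0.27, adjusted p = 1), followed by Ccl6 (-0.66 ± 0.30), Il6ra, the receptor chain that binds interleukin 6 (-1.03 ± 0.53), and Cxcl9, a chemokine induced by interferon gamma (-0.49 ± 0.30). In the other direction were Ccl3 (0.35 ± 0.23), Tnfrsf8, a receptor of activated lymphocytes (0.46 ± 0.35), Tnfrsf11b (0.43 ± 0.38) and Tnfrsf1a (0.24 ± 0.23). Ccl2 had 0.32 ± 0.62, Cxcl12 0.14 ± 0.34 and Il6st 0.02 ± 0.27.

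Within Glucose, Il1rn had 207 and 141 with hypoxia against 343 and 437 without (-1.18 ± 0.38). Ccl6 had 1268 and 1902 with hypoxia against 2708 and 4857 without (-1.22 ± 0.43). In both genes the hypoxia arrays were the lower pair, and in both the adjusted p was 1. Cxcl9 (-0.93 ± 0.42) and Cxcr3, the receptor for Cxcl9 (-0.64 ± 0.49), came next. On the higher side were Ccl3 (0.63 ± 0.33), Tnfrsf1a (0.63 ± 0.33), Il1r2 (0.55 ± 0.37) and Ccl7, a monocyte chemokine (1.30 ± 0.94), with Ccl2 at 1.14 ± 0.87.

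Within Con, Il6ra had 447 and 233 with hypoxia against 925 and 1561 without (-1.90 ± 0.75, adjusted p = 1), so the 2 hypoxia arrays were the lower. Next were Tnfrsf11a, the receptor for RANK ligand (-1.19 ± 0.65), Il1r2 (-0.64 ± 0.37) and Il4ra, a chain shared by the receptors for interleukins 4 and 13 (-0.64 ± 0.44). The higher side held Ccl11, eotaxin (0.30 ± 0.42), Tnfrsf8 (0.32 ± 0.49), Il7r (0.34 ± 0.54) and Il17ra, a receptor chain for interleukin 17 (0.19 ± 0.38), each with an error above its value. Ccl2 had -0.50 ± 0.87, Cxcl12 -0.21 ± 0.48 and Il6st -0.11 ± 0.38 there.

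The difference between the hypoxia effects, Glucose minus Con, was 1.19 ± 0.52 for Il1r2 (adjusted p = 0.999), as its level was higher with hypoxia on Glucose and lower with hypoxia on Con. It was 1.65 ± 0.89 for Tnfrsf17, a receptor of plasma cells, 0.86 ± 0.49 for Tnfrsf1b, the second Tnf receptor, and 0.77 ± 0.46 for Tnfrsf1a. Negative differences were found for Ccl6 (-1.12 ± 0.61), Il1rn (-0.82 ± 0.54), Cxcl9 (-0.86 ± 0.59) and Il7r (-0.97 ± 0.77). None of them passed, so no gene here is shown to respond differently on the 2 sides.

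**Figure D3:**
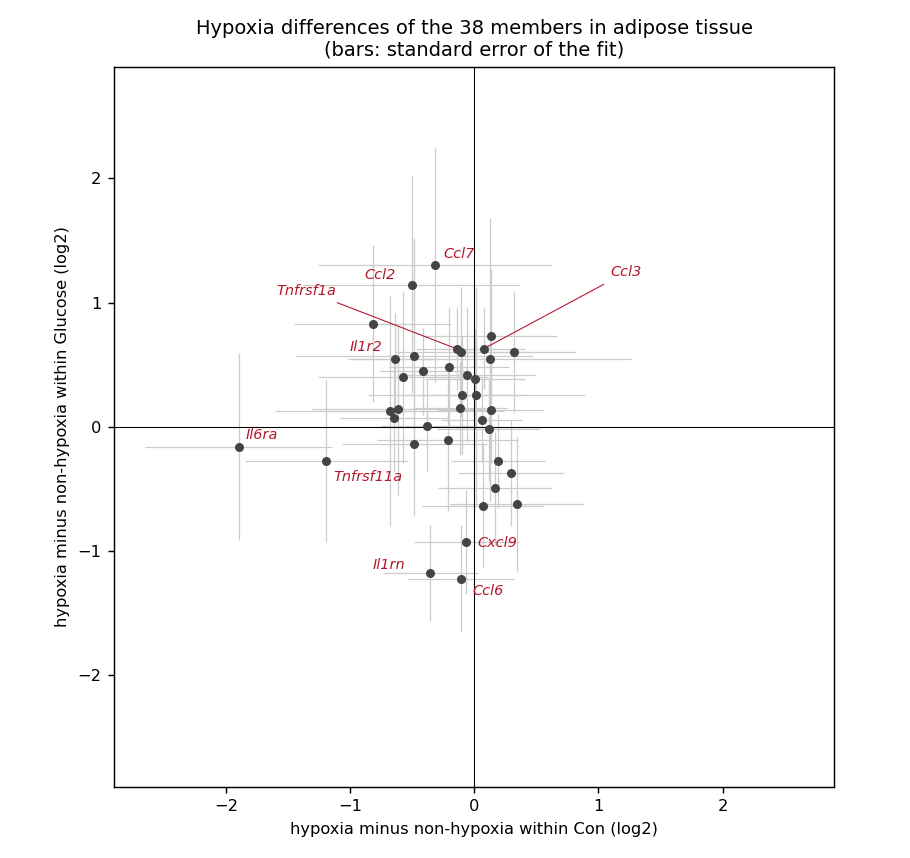
Hypoxia minus non-hypoxia in log2, within Glucose (vertical) against within Con (horizontal), for the 38 genes tested in adipose tissue; bars are standard errors of the fit, and each value compares 2 arrays with 2. Il1rn and Ccl6 lie lowest within Glucose, Il6ra lies lowest within Con, and no point passed the test.

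The tissue panel asks where these genes are expressed, by comparing each tissue with the mean of the other 3. As its filter used the highest tissue mean, a gene could be tested only because it was high in 1 tissue. The selection of such genes favours finding them higher in that tissue. Of the 26 genes tested, 15 differed in lung (12 higher, 3 lower), 19 in brain (3 higher, 16 lower), 11 in heart (8 higher, 3 lower) and 11 in skeletal muscle (4 higher, 7 lower). Over all 7453 probe sets 62.0% differed in lung, 49.5% in brain, 38.7% in heart and 52.5% in muscle. The shares higher and lower were 28.1% and 33.8% in lung, 19.2% and 19.5% in heart, and 24.9% and 27.6% in muscle, and 23.5% and 26.0% in brain. The median of the 26 genes was 0.39 in lung, -0.64 in brain, 0.18 in heart and -0.03 in muscle, beside -0.10, -0.08, 0.00 and 0.00 over all probe sets. The arrays of a tissue did not overlap with the others for 34.6% of the 26 genes in lung and 26.9% in brain. In heart the share was 19.2% and in muscle 11.5%. Over all probe sets these shares were 30.8% in lung, 22.9% in brain, 8.77% in heart and 15.4% in muscle.

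The genes higher in lung included both chemokine receptors tested, 6 of 9 interleukin receptors and 2 of 6 Tnf superfamily receptors. Il4ra, Il18r1, Ccr2 and Cxcr4 passed the filter only through their lung levels. The selection therefore favoured finding them higher in lung, and their counts and p-values below are to be read with that limit. Il4ra had log2 levels of 10.62, 10.61 and 10.55 on the hypoxia, fragmentation and control lung arrays, against 7.34 to 7.87 on the 9 arrays of the other tissues (3.06 ± 0.13, 8.34-fold, adjusted p = 1.24e-07). Il18r1 had 10.24, 10.14 and 10.38 in lung, against 7.04 to 8.35 elsewhere (2.64 ± 0.18, 6.25-fold). On these probe sets the lung arrays lay above all others for both genes. A second probe set of Il4ra, which did not pass the filter in the panel, was lowest in lung, with means of 8.44 in lung, 8.66 in brain, 8.92 in heart and 9.14 in muscle.

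Among the chemokine receptors, Ccr2 had 10.42, 10.23 and 10.35 in lung, against 7.09 to 8.75 elsewhere (2.22 ± 0.30, 4.65-fold, adjusted p = 0.00013). Cxcr4, the receptor for Cxcl12, had 9.40, 9.01 and 9.52 in lung, against 6.97 to 7.74 elsewhere (1.93 ± 0.20, 3.82-fold). Its ligand Cxcl12 did not pass in lung on the probe set used (-0.15 ± 0.16). Another probe set of Cxcl12 that passed the filter had its highest mean in lung, 9.58. Its means were 9.39 in heart, 8.94 in muscle and 8.76 in brain. Smaller differences that passed were Ccl9 (1.14 ± 0.16), Il6ra (1.07 ± 0.16), Il10rb (0.92 ± 0.17), Il6st (0.80 ± 0.12), Il17ra (0.72 ± 0.15), Ccrl2 (0.42 ± 0.14) and Tnfrsf1b (0.36 ± 0.13). Tnfrsf1b passed in 10 of 17 other settings (adjusted p up to 0.161), and Ccrl2 was lost without the lung control array (adjusted p = 0.121) or the lung fragmentation array (adjusted p = 0.135). On the probe sets used, 3 ligands were lower in lung. These were Il9, a growth factor of T cells and mast cells (-1.08 ± 0.23), Cxcl1, which attracts neutrophils (-0.85 ± 0.20), and Ccl22, which attracts T cells (-0.81 ± 0.17). A second probe set of Cxcl1 did not pass the filter in the panel and was not low in lung. Its means were 8.07 in lung, 8.30 in heart, 7.55 in muscle and 7.24 in brain.

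Tnfrsf1a was higher in lung by 2.0 ± 0.26 on the probe set used here, with 10.77, 11.16 and 10.93 in lung against 7.72 to 9.88 elsewhere. Another probe set of the gene, at the floor on 7 of 8 adipose arrays, gave the opposite sign, -0.93 in lung and 0.95 in muscle. The direction of this gene between tissues therefore depends on the probe set.

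Markers of several cell types moved with lung. The macrophage list summed to 26005 to 27635 in lung against 4999 to 9865 in the other tissues, with 5 of 6 tested markers higher in lung. The neutrophil list summed to 7347 to 10267 in lung against 2630 to 4279 elsewhere, with 3 of 5 higher, and the endothelium list to 16427 to 19064 against 1930 to 7403, with 4 of 5 higher. The B cell list summed to 5911 to 9765 in lung against 3032 to 4799 elsewhere, with 3 of 5 higher. Of T cell markers 2 of 2 tested were lower in lung than the mean of the other tissues, with a median of -0.70. Their list was high in brain, with sums of 8579 to 11128. In lung it summed to 2282 to 3116, at the level of heart (2053 to 2571) and muscle (2414 to 3295). Of 5 heart markers 3 were higher and 1 lower in lung, with sums of 10823 to 16834 in lung against 1406 to 2528 in brain and muscle. The lung arrays were also those with low Actb 3' to 5' ratios. The part of these cells and of RNA quality in the lung differences was not tested.

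Brain was the tissue in which most of these genes were lower, among them 7 of 9 interleukin receptors. Il6st had 10.46, 10.01 and 10.24 on the hypoxia, fragmentation and control brain arrays, against 11.36 to 11.97 in the other tissues (-1.40 ± 0.12, 2.65-fold lower, adjusted p = 5.74e-06). Il10rb had 9.94, 10.22 and 9.99 in brain, against 10.46 to 12.42 elsewhere (-1.56 ± 0.17). Ccl9 had 7.6, 7.55 and 7.46 in brain, against 8.82 to 10.27 elsewhere (-1.83 ± 0.16). In each of these the brain arrays lay below every other array.

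The other genes that were lower in brain were Il15ra, the receptor chain that presents interleukin 15 (-1.66 ± 0.33), Tnfrsf1a (-1.49 ± 0.26), Ccr2 (-1.16 ± 0.30), Il4ra (-1.12 ± 0.13), Il18r1 (-1.03 ± 0.18), Tnfrsf1b (-0.81 ± 0.13), Cxcl12 (-0.81 ± 0.16), Il6ra (-0.80 ± 0.16), Il1r1 (-0.68 ± 0.18), Ccrl2 (-0.62 ± 0.14), Cxcr4 (-0.58 ± 0.20), Cxcl1 (-0.53 ± 0.20) and Tnfrsf11a (-0.50 ± 0.18). These values are against the mean of the other 3 tissues. Against muscle alone, brain minus muscle was -0.12 for Ccr2, -0.03 for Il4ra, 0.19 for Il18r1 and 0.20 for Cxcr4, and none passed. None of these genes passed in brain against heart alone either, while each did against lung alone. Higher in brain were 3 genes. Cxcl14, a chemokine of epithelia and brain, had 10.55, 10.55 and 10.46 in brain, against 8.43 to 10.41 elsewhere (0.95 ± 0.21, adjusted p = 0.00322). Tnfrsf21, a death receptor of neurons, had 9.99, 10.31 and 9.85 in brain, against 8.26 to 9.71 elsewhere (0.89 ± 0.16), and Il16 differed by 0.72 ± 0.20. Without the brain hypoxia array 15 of the genes passed in brain and Il16 no longer did (0.68, adjusted p = 0.0527), nor without the brain control array (0.49, adjusted p = 0.101). Of the 19 calls in brain 12 held in every other setting. Cxcl1 passed in 5 of 17 of them, Tnfrsf11a in 7 of 17 and Cxcr4 in 7 of 13. Without the brain fragmentation array Ccr2 (adjusted p = 0.0756) and Il1r1 (adjusted p = 0.0768) did not pass, and Tnfrsf1a did not with its other probe set (-0.19, adjusted p = 0.611). Markers of other cells were also lower in brain: 4 of 5 of endothelium, 3 of 6 of macrophages, 3 of 5 of neutrophils and 3 of 5 of B cells. Higher in brain were 1 of 2 T cell and 1 of 2 mast cell markers tested. The part of all these cells, and that of the low Actb ratio of the brain hypoxia array, was not tested.

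On the probe sets used, heart showed the highest levels of 2 CXC chemokines. Cxcl12 had 11.44, 11.28 and 11.81 on the hypoxia, fragmentation and control heart arrays, against 9.99 to 10.89 in the other tissues (1.11 ± 0.16, 2.16-fold, adjusted p = 0.00045). Cxcl1 had 9.13, 9.48 and 10.14 in heart, against 7.54 to 8.79 elsewhere (1.31 ± 0.20, 2.48-fold). Heart arrays lay above all others for both. The other probe sets of Cxcl12 had their highest means elsewhere: one, which passed the filter, had 9.58 in lung and 9.39 in heart, and one that did not pass had 8.90 in muscle, 8.84 in lung and 8.60 in heart.

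Il15ra (1.56 ± 0.33) and Il10rb (1.41 ± 0.17) were higher in heart by more than 2-fold, and Ccl9 (0.63 ± 0.16), Il6st (0.49 ± 0.12), Ccl22 (0.47 ± 0.17) and Tnfrsf1b (0.39 ± 0.13) by less. Lower in heart were Tnfrsf21 (-1.26 ± 0.16), Cxcl14 (-1.13 ± 0.21) and Il4ra (-0.87 ± 0.13). For Il4ra heart passed against lung alone (heart minus lung -2.95). It did not pass against brain (brain minus heart -0.19) or muscle (heart minus muscle 0.16). The calls for Ccl22 and Tnfrsf1b were lost without any one of several arrays (adjusted p up to 0.199 for Ccl22 and 0.215 for Tnfrsf1b, both without the heart control array), and those for Ccl9 without the heart control or heart fragmentation array (adjusted p = 0.0717 and 0.0764). Il6st did not pass by limma without the heart fragmentation array (0.46, adjusted p = 0.0569). Of the 11 calls in heart 7 held in every other setting. The part of the low Gapdh ratio of the heart hypoxia array was not tested.

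Skeletal muscle was the tissue with the highest levels of Il9, at 10.5, 10.70 and 10.55 on the hypoxia, fragmentation and control arrays, against 8.18 to 10.17 elsewhere (1.04 ± 0.23, adjusted p = 0.00352). Tnfrsf9, a costimulatory receptor of T cells (0.87 ± 0.21), Il27ra (0.90 ± 0.33) and Tnfrsf11a (0.65 ± 0.18) were also higher. Lower in muscle were Il18r1 (-1.29 ± 0.18), Il4ra (-1.08 ± 0.13), Ccr2 (-1.0 ± 0.30), Cxcr4 (-0.85 ± 0.20), Il10rb (-0.77 ± 0.17), Tnfrsf1a (-0.69 ± 0.26) and Il6ra (-0.66 ± 0.16). Against brain alone Il18r1, Il4ra, Ccr2 and Cxcr4 did not pass (brain minus muscle 0.19, -0.03, -0.12 and 0.20). All of them passed against lung alone, and only Il18r1 against heart alone (heart minus muscle 0.73). The second probe set of Il4ra, which did not pass the filter, had its highest mean in muscle (9.14). Without the muscle control array 7 genes passed in muscle, and without the muscle hypoxia array also 7. Of the 11 calls in muscle 5 held in every other setting. Il27ra passed in 8 of 17 of them. Tnfrsf1a passed in 7 of 17 and kept its sign in 16. All 3 muscle arrays had low Gapdh ratios, and 3 of 5 endothelium and 3 of 6 macrophage markers were lower in muscle. Of 5 adipocyte markers tested 3 were higher, and their list summed to 3823 to 15808.5 on the 3 muscle arrays. The part of the Gapdh ratios and of these cells in the muscle differences was not tested, nor in the exposure differences within muscle. Cxcl12 (-0.16 ± 0.16) and Il6st (0.12 ± 0.12) did not pass in muscle.

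**Figure D4:**
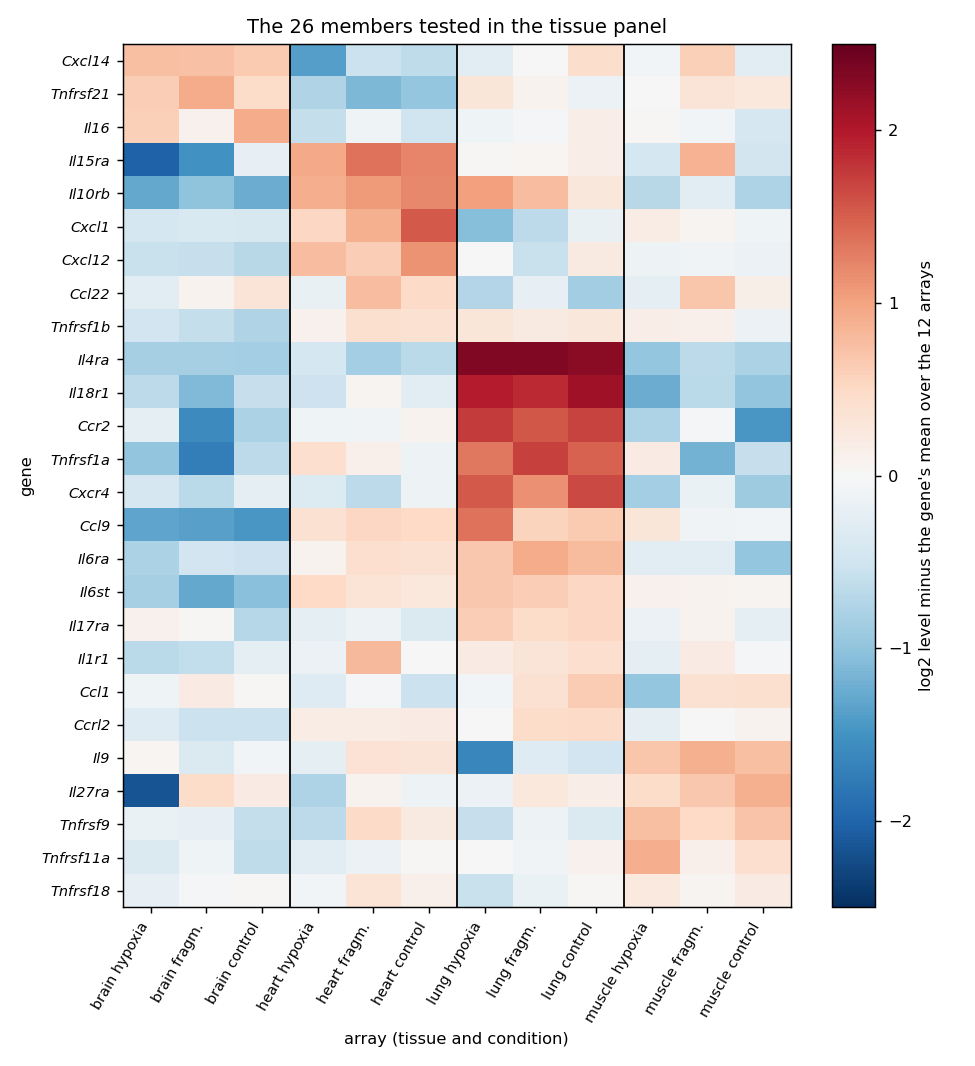
Log2 level of the 26 genes tested in the tissue panel on each of the 12 arrays, as the difference from the mean of each gene over the 12 arrays (red above, blue below); genes are ordered by the tissue of highest mean, and columns by tissue and exposure. The block of red over the lung columns holds Il4ra, Il18r1, Ccr2, Tnfrsf1a and Cxcr4, and Il27ra is dark blue on the brain hypoxia array alone.

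The 5 highest mean log2 levels in brain were those of Il27ra (10.64), Cxcl14 (10.52), Ccl22 (10.35), Il6st (10.24) and Cxcl12 (10.07), again from different probe sets. In lung they were Il10rb (11.91), Il6st (11.89), Il27ra (11.22), Tnfrsf1a (10.95) and Il4ra (10.60), in heart Il10rb (12.28), Il6st (11.66), Cxcl12 (11.51), Il15ra (11.30) and Il27ra (10.86), and in muscle Il27ra (11.80), Il6st (11.38), Il10rb (10.65), Il9 (10.59) and Cxcl12 (10.56). Tnf, Il6, Il1b, Ccl2 and Ifng did not pass the filter in the panel, and Il1b had its highest intensity, 448, on the lung control array.

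Of the intracellular signalling list 13 of 29 tested genes were higher and 6 lower in lung, 0 higher and 17 lower in brain, 6 higher and 2 lower in heart, and 7 higher and 4 lower in muscle. Its median was 0.31 in lung, -0.56 in brain, 0.13 in heart and 0.22 in muscle.

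Exposures were compared across the panel in a fit with tissue and condition as terms, which tests changes shared by the 4 tissues. None of the 26 genes passed for hypoxia minus control, for hypoxia minus fragmentation or for fragmentation minus control, beside 0% of all probe sets in each. At an unadjusted p of 0.05 there were 1, 3 and 0 genes of the 26, and 374, 750 and 335 of all probe sets. The comparisons share arrays, so their values are given side by side.

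For hypoxia minus control the smallest p among lower genes belonged to Il27ra (-0.93 ± 0.35, adjusted p = 0.906, negative in 4 of 4 tissues), Ccl1, which attracts T cells (-0.50 ± 0.23), Ccl22 (-0.37 ± 0.18) and Cxcl1 (-0.41 ± 0.21). Among higher genes it belonged to Il17ra (0.29 ± 0.16), Ccl9 (0.28 ± 0.17), Il6st (0.17 ± 0.13) and Ccr2 (0.27 ± 0.32), and Cxcl12 had -0.10 ± 0.17. For hypoxia minus fragmentation the lower genes were Ccl22 (-0.69 ± 0.18, adjusted p = 0.464, negative in 4 of 4 tissues), Il27ra (-1.02 ± 0.35), Ccl1 (-0.60 ± 0.23) and Il1r1 (-0.40 ± 0.19). The higher ones were Tnfrsf1a (0.52 ± 0.28), Ccl9 (0.28 ± 0.17), Il6st (0.17 ± 0.13) and Cxcl12 (0.18 ± 0.17). For fragmentation minus control the values were Il17ra at 0.31 ± 0.16, Ccl22 at 0.32 ± 0.18, Il10rb at 0.28 ± 0.18, Il6ra at 0.23 ± 0.17, Cxcl12 at -0.28 ± 0.17, Cxcl1 at -0.23 ± 0.21, Tnfrsf1a at -0.30 ± 0.28 and Cxcr4 at -0.19 ± 0.21.

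Within a tissue each exposure is 1 array against 1 control array, so no test can be made and genes 2-fold or more apart were counted. For hypoxia there were 2 of 26 in brain, 1 in heart, 1 in lung and 1 in muscle, all lower, beside 6.09%, 5.82%, 2.80% and 6.61% of all probe sets. For fragmentation there were 2 in brain, both lower, 0 in heart, 0 in lung and 2 in muscle, both higher, beside 3.88%, 4.04%, 1.62% and 7.82%. Hypoxia arrays and fragmentation arrays of a tissue were set against the same control array. Between hypoxia and fragmentation arrays themselves 2 of 26 genes were 2-fold apart in brain, 1 in heart, 1 in lung and 3 in muscle, beside 5.64% of all probe sets in brain, 6.96% in heart, 149 of 7453 in lung and 7.92% in muscle.

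In brain, Il27ra had a log2 level of 8.98 with hypoxia and 11.34 in control (-2.36). Its deposited intensity was 1369 with hypoxia and 2337 in control, on an array whose overall scale is the higher one, so the difference was larger after the arrays were brought to 1 scale. Il15ra had 8.11 with hypoxia and 8.62 with fragmentation, against 9.92 in control (-1.80 and -1.29), and Ccl22 -0.58 with hypoxia. The highest hypoxia differences were Il17ra (0.82), Ccr2 (0.54) and Tnfrsf9 (0.44). With fragmentation the lowest after Il15ra were Tnfrsf1a (-1.08) and Il16 (-0.82), and the highest Il17ra (0.73), Tnfrsf11a (0.52) and Tnfrsf21 (0.46).

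In heart, Cxcl1 had 9.13 with hypoxia and 9.48 with fragmentation, against 10.14 in control (-1.01 and -0.66). With hypoxia Tnfrsf9 (-0.88) and Cxcl14 (-0.74) followed, and Tnfrsf1a (0.56), Il6st (0.24) and Il4ra (0.24) were highest. With fragmentation Cxcr4 (-0.53) and Cxcl12 (-0.52) were among the lowest and Il1r1 (0.79), Ccl1 (0.48) and Il16 (0.40) the highest.

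In lung, Il9 had 8.18 with hypoxia and 9.34 in control (-1.15), followed by Cxcl1 (-0.87) and Ccl1 (-0.71), while Il10rb (0.74), Ccl9 (0.71) and Tnfrsf21 (0.44) were highest. With fragmentation Cxcl12 (-0.78), Cxcr4 (-0.51) and Cxcl1 (-0.46) were lowest and Ccl22 (0.67), Il10rb (0.50) and Tnfrsf1a (0.23) highest.

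In muscle, Ccl1 had 8.14 with hypoxia and 9.50 in control (-1.37), followed by Il27ra (-0.42) and Ccl22 (-0.37), while Tnfrsf1a (0.78), Il6ra (0.70) and Ccr2 (0.67) were highest. With fragmentation Ccr2 had 8.64 against 7.23 in control (1.41) and Il15ra 11.01 against 9.68 (1.33), and Cxcl14 followed (0.89). The lowest were Tnfrsf1a (-0.61), Tnfrsf11a (-0.29) and Tnfrsf9 (-0.22). Il15ra was thus lower in brain and higher in muscle with fragmentation, each from 1 array.

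**Figure D5:**
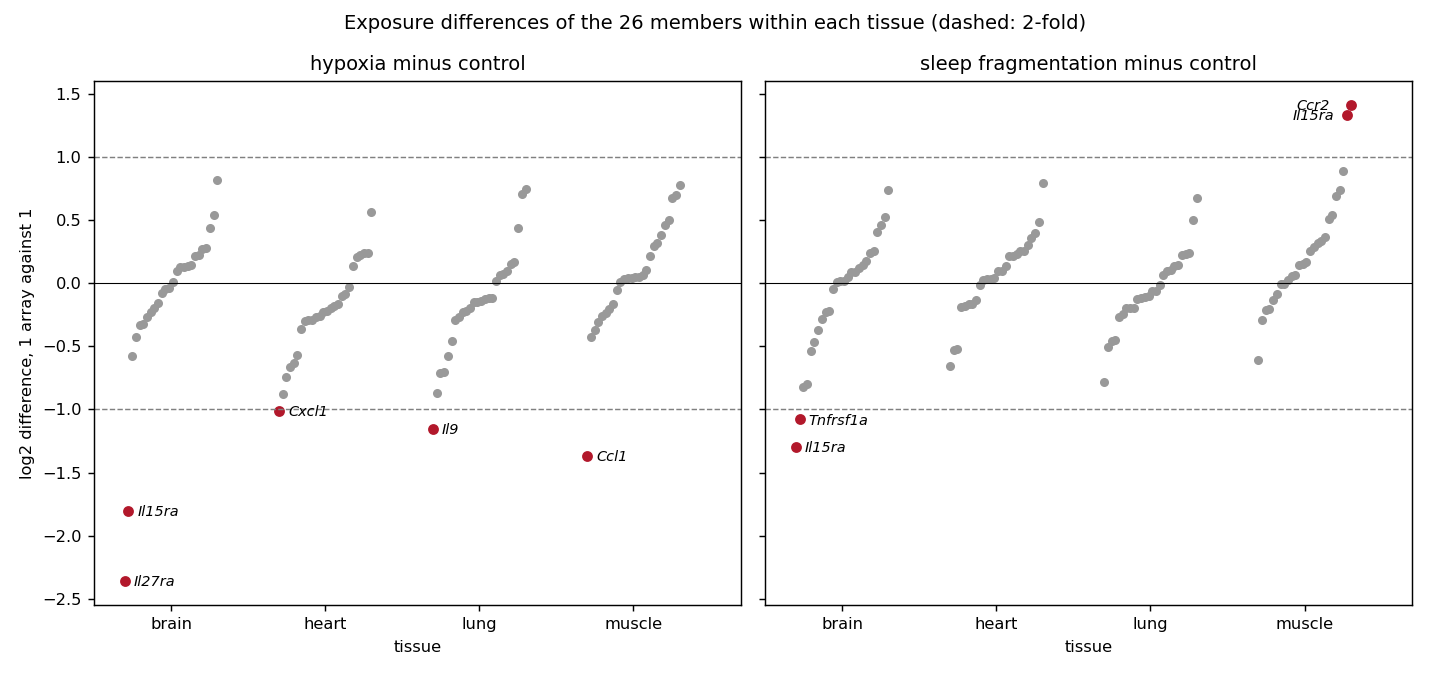
Log2 difference of the 26 genes within each tissue, hypoxia minus control on the left and sleep fragmentation minus control on the right, each from 1 array against 1; dashed lines mark 2-fold and red points lie beyond them. Il27ra (-2.36) and Il15ra (-1.80) in brain are the lowest with hypoxia, and Ccr2 and Il15ra in muscle the highest with fragmentation.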

How the data were processed

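The authors deposited 1 linear intensity per probe set and array, per the labels for an MG-U74Av2 array; the summarisation of probes is not stated in what was used here. Of 12488 probe sets, 66 controls were left out, and 10833 had 1 gene symbol in the platform annotation, 396 several and 1193 none. Adipose intensities under the 20th percentile (97.7) were set to it and taken to log2; panel intensities were taken to log2 after adding that offset, and quantile normalized. Probe sets under the 40th percentile were left out, of the mean in adipose tissue and of the highest tissue mean in the panel. Fits used limma 3.58.1 in R 4.3.3, with 4 residual degrees of freedom in adipose tissue and 6 in the panel, and Benjamini-Hochberg adjustment over all 7453 probe sets tested at 0.05. The steps were tested on simulated data. Named genes were every called one, the 4 of smallest p a direction in hypoxia and exposure contrasts, the 3 highest and lowest within a tissue, the 5 of highest level, and Tnf, Il6, Il1b, Ccl2, Cxcl12 and Il6st. Members, lists and tests were chosen with earlier results of these data known. Promoters are from RefSeq, build GRCm38.p6.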

Additional observations from a re-analysis of the deposited data

Results flagged for a closer look

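In 3 genes 1 array lay far from the other 3 of its side, by the ratio of its gap to the whole range, against Dixon's 95% critical value. Chance gives about 1 in 20 such cases, and 4 of 42 sides were found. Ccl2 on the Glucose arrays had a ratio of 0.9658, with a log2 level of 7.82 on 1 non-hypoxia array and 10.0013 to 10.0785 on the other 3. Il17ra on the Glucose arrays had a ratio of 0.8311, with 8.46 on 1 hypoxia array and 9.04 to 9.16 on the others. Tnfrsf17 had a ratio of 0.8601 on the Glucose arrays, with 7.10 on 1 non-hypoxia array and 8.38 to 8.58 on the others, and 0.9614 on the Con arrays, with 6.79 on 1 hypoxia array and 8.48 to 8.55 on the others.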

How the results depend on the processing

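The number of genes called between Glucose and Con, 5, was 3 without the filter, 3 with the s code of the titles as a term, 3 with the replicate block, 1 to 3 after leaving out single arrays, and 1 when both Con arrays numbered 1 were dropped. Within the s2 arrays and within the s4 arrays, alternatives chosen after seeing the data, it was 0 and 0 by limma, with 10 and 12 genes at an unadjusted p of 0.05. Of all probe sets, 43 were called within the s2 arrays and 181 within the s4 arrays. The labels do not pair the arrays, and the deviations of same-numbered arrays correlated between groups by -0.1372 to 0.4146. The replicate block concerns adipose tissue. In the panel no paired analysis was possible because each group has 1 array. Without the filter 32 genes of 95 were called in lung and 23 in muscle, and with any 1 array left out 7 to 11 in muscle. The shares of all probe sets called without the filter or with arrays left out are not given. Those counts therefore do not compare the genes with the array as a whole. At 2-fold, heart hypoxia gave 0 genes with median scaling and 2 with the lower offset, and lung hypoxia 2 with the lower offset. Leaving out an array leaves a group of 1, assumed to vary like the others, and the causes of these changes were not tested. With the other probe set Tnfrsf1a had -0.1232 for hypoxia minus fragmentation, 0.3292 for fragmentation minus control, -0.9281 in lung (adjusted p = 0.0144) and 0.9483 in muscle (adjusted p = 0.0159). Within the s4 arrays Cxcl12 had 0.3277 and Il6st 0.1858. Without both Con arrays numbered 1 the hypoxia difference within Con was 0.4817 for Ccl2, 0.2195 for Cxcl12 and 0.3679 for Il6st, and the difference of effects for Il6st -0.2199. With 1 array left out, Glucose minus Con spanned -0.5374 to 0.0370 for Cxcl12 and -0.2702 to 0.1526 for Il6st; hypoxia within Con -1.6547 to 0.6485 for Ccl2, -0.6457 to 0.2354 for Cxcl12, -0.1053 to 0.4872 for Il17ra, -0.5370 to 0.3086 for Il6st, -0.3186 to 1.0070 for Il7r and -0.1645 to 0.7240 for Tnfrsf8. Likewise hypoxia within Glucose spanned -0.0923 to 1.0563 for Cxcl12, the mean hypoxia difference -0.2553 to 0.8963 for Ccl2, -0.1488 to 0.4256 for Cxcl12 and -0.1945 to 0.2283 for Il6st, and the difference of effects -0.1606 to 0.6850 for Il6st. In the panel, Cxcl12 in lung spanned -0.2798 to 0.0520, Ccr2 for hypoxia minus control -0.0154 to 0.3942 and Il6st for fragmentation minus control -0.0366 to 0.0803.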
